A study of Mus musculus with 6 samples.

Results

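Transcripts of 10 genes of hepatic fatty acid synthesis were compared between livers that had lost LKB1 and wild-type livers. The genes were Acly, Me1, Acaca, Acacb, Fasn, Elovl6, Scd1, Thrsp, Mlxipl and Pnpla3, taken by symbol, and all 10 were found as 1 row each among the 55450 genes of the count table. Reported are their levels in each mouse, the knockout against wild-type difference, and the way that difference varied among the mice. The knockout group held 3 LKB1 fl/fl mice and the wild-type group 3 mice with a normal genotype, all labelled as strain C57BL/J. Both groups received an adeno-associated virus (AAV8 Cre) at 6 weeks of age, so that exposure to the virus and to Cre recombinase was shared, and the livers were collected when the mice were 10 weeks old, 4 weeks after injection. Polyadenylated RNA of the left lobe was sequenced, with 1 library per mouse. The promoter that drives Cre, the sex of the mice and their feeding state at collection are not given in the sources used here.

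De novo lipogenesis turns surplus carbohydrate into fatty acids in the cytosol of hepatocytes. Citrate leaves the mitochondria and is split to acetyl-CoA by ATP citrate lyase, acetyl-CoA carboxylases make malonyl-CoA, fatty acid synthase builds palmitate with NADPH, and elongases and desaturases modify the product. Transcription of these enzymes is driven in liver mainly by the Srebf1 product after insulin, by the Mlxipl product (ChREBP) after glucose, and by liver X receptors. LKB1, encoded by Stk11, is a kinase that activates AMPK, and AMPK in turn inhibits both acetyl-CoA carboxylases by phosphorylation, a step that counts of mRNA do not measure.

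Start-site sequences are shown for 5 members. Acly had the largest log2 difference of knockout minus wild type over the 6 libraries (Thrsp in Y-positive libraries and Elovl6 in the Xist pair, subsets described below, had larger ones), Acacb, Thrsp and Mlxipl were low in the same knockout libraries, and Pnpla3 was above 10 counts in only 2 libraries. The sequences come from RefSeq on GRCm38.p6 and run 5′ to 3′ on the strand of the gene, from 250 bases before an annotated start to 50 bases from it on. Capitals mark every match, on either strand, to the motifs searched.
Acly, chr11:100527951-100528250, minus strand: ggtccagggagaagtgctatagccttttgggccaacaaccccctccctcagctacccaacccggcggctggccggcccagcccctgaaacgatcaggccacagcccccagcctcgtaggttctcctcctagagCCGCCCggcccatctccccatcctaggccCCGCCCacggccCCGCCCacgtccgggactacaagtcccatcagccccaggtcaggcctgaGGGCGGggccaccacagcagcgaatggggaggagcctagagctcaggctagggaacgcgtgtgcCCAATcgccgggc
Acacb, chr5:114165268-114165567, plus strand: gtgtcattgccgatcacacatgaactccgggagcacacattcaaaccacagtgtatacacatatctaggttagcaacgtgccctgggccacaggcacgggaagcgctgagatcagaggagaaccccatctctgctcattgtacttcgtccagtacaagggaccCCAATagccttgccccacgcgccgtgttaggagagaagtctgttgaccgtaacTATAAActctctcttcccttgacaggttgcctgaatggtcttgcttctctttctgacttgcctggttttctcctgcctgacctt
Thrsp, chr7:97417501-97417800, minus strand: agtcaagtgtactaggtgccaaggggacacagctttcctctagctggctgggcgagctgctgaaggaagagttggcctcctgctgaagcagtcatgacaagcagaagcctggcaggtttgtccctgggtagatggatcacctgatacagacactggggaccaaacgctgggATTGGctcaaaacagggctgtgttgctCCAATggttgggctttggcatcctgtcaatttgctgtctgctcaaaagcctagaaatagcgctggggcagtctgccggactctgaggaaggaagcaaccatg
Mlxipl, chr5:135089640-135089939, plus strand: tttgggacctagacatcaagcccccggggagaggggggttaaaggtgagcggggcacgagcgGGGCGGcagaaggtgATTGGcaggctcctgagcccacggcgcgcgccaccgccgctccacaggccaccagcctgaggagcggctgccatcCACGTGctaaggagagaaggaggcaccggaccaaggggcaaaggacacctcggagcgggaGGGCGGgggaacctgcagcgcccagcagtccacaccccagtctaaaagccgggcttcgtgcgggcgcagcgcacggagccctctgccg
Pnpla3, chr15:84167566-84167865, plus strand: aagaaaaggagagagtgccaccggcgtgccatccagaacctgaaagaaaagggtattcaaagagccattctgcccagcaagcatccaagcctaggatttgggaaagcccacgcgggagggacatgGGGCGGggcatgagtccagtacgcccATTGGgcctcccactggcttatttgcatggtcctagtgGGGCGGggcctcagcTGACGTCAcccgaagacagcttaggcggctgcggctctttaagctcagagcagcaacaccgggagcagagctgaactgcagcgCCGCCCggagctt

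The motifs were the E box CACGTG, the paired E boxes of a carbohydrate response element (CACGTG, any 5 bases, CACGTG, so that each match also counts as E boxes), the sterol response element TCACCCCAC, the CCAAT box (CCAAT), the LXR element (AGGTCA, any 4 bases, AGGTCA), the GC box GGGCGG, the TATA box TATAAA and the cAMP response element TGACGTCA. RefSeq windows were matched for 9 members (all but Scd1), 11 windows in all. Mlxipl and Me1 had more than 1 window each. The other Mlxipl window, chr5:135106641-135106940 on the plus strand, lies inside the gene, held no match to any motif and is not printed. An E box was in 1 of the 11 windows, the Mlxipl window printed above, at position -98 from that start. It was in 7.15% of all 32851 windows of this length. A CCAAT box was in 7 of the 11 windows and in 37.4% of all windows, and the Thrsp window held 2, at -79 and -52. The Acly window held 4 GC boxes, which were found in 35.7% of all windows. The Acacb window, whose start lies inside the gene range of the other annotation used here, held a TATA box at -34, a motif found in 13.6% of all windows. The Pnpla3 window held a cAMP response element at -46, against 1.79% of all windows. The paired E boxes, the sterol response element and the LXR element were in 0 of the 11 windows and in 0%, 0.551% and 0.0152% of all windows. Exact strings this rare cannot show that such sites are absent, and sequence outside the windows was not searched.

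The 6 libraries held 47659122 to 56147667 counts. Stk11 was at 22.1, 14.4 and 11.4 CPM (counts per 1e6 counts, on library sizes scaled by edgeR) in knockout replicates 1 to 3, and at 66.1, 64.2 and 69.7 CPM in wild-type replicates 1 to 3, so the labels held. Replicate 1 of each group stood apart, with 42472 and 29243 counts of the X-inactivation transcript Xist and 6 and 3 counts of 4 Y-linked genes, while the other 4 had at most 16 counts of Xist and 6146 to 8199 Y-linked counts. The difference of each tested member is therefore also given within those 4 libraries, called Y-positive below, and in the remaining 2, called the Xist pair, which is 1 library against 1 with no replicate check. The quasi-likelihood test of edgeR, at an adjusted p-value of 0.05, called 490 of 14539 genes tested (3.37%), 313 higher (2.15%) and 177 lower (1.22%) in knockout, a split that was 380 to 131 when libraries were scaled by size alone. The labels name 6 separate mice, and counts of 2 libraries of a group differed by far more than sampling noise in every pair.

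Defining hepatocyte transcripts were abundant in every library. Their summed level, most of it from Alb, was lower in each knockout library than in any wild-type library. Of the 6 markers 0 passed the threshold in edgeR, 3 (Alb, Apoa1 and Ttr, all lower) in DESeq2 and 1 (Apoa1) in limma voom. The shares of all genes tested that passed were 3.37%, 15.8% and 2.97%. In edgeR the smallest unadjusted p-values were 0.00259 for Apoa1, 0.00655 for Ttr and 0.05 for Alb. For 6 hepatocyte markers found in the table the summed level was 64900, 17900 and 27000 CPM in knockout replicates 1 to 3 and 117000, 91000 and 79100 CPM in wild type. Hnf4a, a hepatocyte transcription factor gene, went the other way, at 542, 625 and 670 CPM in knockout and 539, 524 and 536 CPM in wild type, and Serpinc1 overlapped between the groups. The order of the summed level among knockout libraries, replicate 1 over 3 over 2, was also that of 7 members below, and the part of hepatocyte RNA content in those results was not tested. Fat cells express the same lipogenic enzymes, and their defining markers Adipoq, Plin1, Lep and Retn were at 0 in all 3 knockout libraries and at no more than 0.0641 CPM, the level of 3 counts, in wild type. Of the other 2 fat cell markers, Cfd was at 0 except for 0.27 and 0.107 CPM in wild type 2 and 3, and Fabp4, which is not confined to fat cells, was at 2.38 to 6.62 CPM in knockout and 5.57 to 6.51 CPM in wild type. The summed endothelial markers ran from 66.8 to 114 CPM in knockout and from 140 to 196 CPM in wild type, the Kupffer cell markers from 90.5 to 191 and from 118 to 160 CPM, the stellate cell markers from 93.9 to 209 and from 163 to 355 CPM, and the bile duct markers from 24.8 to 74.2 and from 39.5 to 72.7 CPM. In these whole-tissue samples fewer cells of a type and less RNA per cell cannot be told apart.

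Of the 9 members tested, 0 passed the threshold over the 6 libraries, against 3.37% of all genes tested. Of these, 3 members were higher in knockout on the log2 scale and 6 lower, with a median log2 fold change of -0.16 against 0.01 over all genes tested. At an unadjusted p-value under 0.05 there was 1 member, Acly, in edgeR, where 26.3% of all genes had such a value. Acly was also the 1 member that passed an adjusted p-value of 0.05 in DESeq2 and in limma voom, where 15.8% and 2.97% of all genes passed. The same held in edgeR with libraries scaled by size only (3.51% of genes), with no filter on low counts (3.25%) and with the Xist state as a covariate (10.3%). Pnpla3 was the 1 member left out by the filter on low counts. With n = 3 per group the test had few degrees of freedom, and the spread among knockout mice was wide, as the values show. On simulated counts edgeR called 10 of 97 genes changed 2-fold, so 0 of 9 does not show that the members were unchanged. DESeq2 called more such genes, but 40 of its 169 calls were false.

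**Figure D1:**
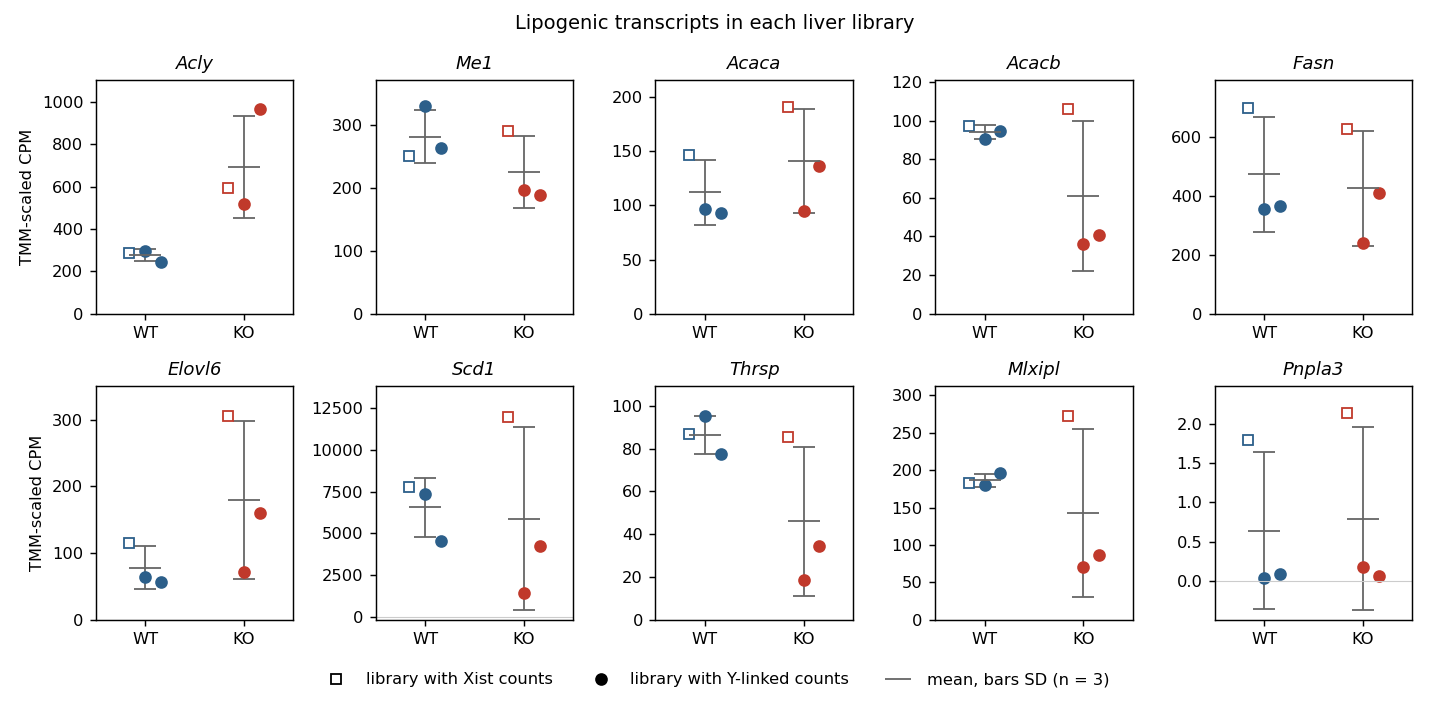
TMM-scaled CPM of the 10 members in each library, with wild type in blue, knockout in red, open squares for the 2 libraries with Xist counts and filled circles for the 4 with Y-linked counts. Horizontal marks are means and bars are SD (n = 3). The groups are apart for Acly alone, and the open red square, knockout 1, is the highest knockout value in every panel but that of Acly.

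The enzymes that supply carbon and reducing power came first in the pathway. Acly (ENSMUSG00000020917.17, GRCm38 chromosome 11, 100476353 to 100528000, minus strand), the ATP citrate lyase gene, was at 594, 517 and 968 CPM in knockout replicates 1 to 3 and at 287, 297 and 246 CPM in wild type. All 3 knockout libraries lay above all 3 wild-type libraries, and no other member tested was so separated, against 32.4% of all genes tested in either direction and 16.9% with knockout higher. The means were 693 ± 241 and 277 ± 26.5 CPM (SD, n = 3 each), 2.51 times as high in knockout, and the log2 difference was 1.33 ± 0.27 (SE) with an edgeR adjusted p-value of 0.0507. The adjusted p-value was 5.4e-05 in DESeq2 and 0.0476 in limma voom. The difference was 1.45 ± 0.324 in Y-positive libraries (edgeR adjusted p = 0.0228) and 1.05 in the Xist pair, so its sign was the same in both.

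Me1 (ENSMUSG00000032418.15, chromosome 9, 86581371 to 86695953, minus strand) encodes the cytosolic malic enzyme, a source of NADPH. It was at 291, 196 and 188 CPM in knockout replicates 1 to 3 and at 251, 330 and 263 CPM in wild type. Knockout 1 lay inside the wild-type range, and knockout 2 and 3 lay below it. The log2 fold change was -0.32 ± 0.225 over all libraries (edgeR adjusted p = 0.399). It was -0.63 ± 0.164 in Y-positive libraries (edgeR adjusted p = 0.0348) and 0.22 in the Xist pair.

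The acetyl-CoA carboxylases make malonyl-CoA, Acaca (ACC1) in the cytosol for synthesis and Acacb (ACC2) at the mitochondrial surface, where malonyl-CoA restrains entry of fatty acids through Cpt1. Acaca (ENSMUSG00000020532.18, chromosome 11, 84129672 to 84401651, plus strand) was at 191, 95.1 and 136 CPM in knockout and at 147, 96.3 and 93.3 CPM in wild type. The groups overlapped, and replicate 1 was the highest library of each. The log2 fold change was 0.32 ± 0.299 (edgeR adjusted p = 0.522), with 0.28 in Y-positive libraries and 0.37 in the Xist pair. Gm11437 lies within the gene range of Acaca on the opposite strand and had 111 to 618 counts per library against 4362 to 11145 of Acaca. Overlap of their exons was not examined and the use of strand is not stated, so whether they share reads was not tested.

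Acacb (ENSMUSG00000042010.16, chromosome 5, 114146535 to 114250761, plus strand) was at 106, 36.3 and 41 CPM in knockout replicates 1 to 3 and at 97.2, 90.3 and 94.6 CPM in wild type. Knockout 2 and 3 were below every wild-type library and knockout 1 above every one. The spread was 39 CPM (SD) in knockout and 3.49 CPM in wild type. Over the 6 libraries the log2 fold change was -0.62 ± 0.401 (edgeR adjusted p = 0.361). In Y-positive libraries Acacb fell by 1.26 ± 0.115 on the log2 scale (edgeR adjusted p = 0.00175), while the Xist pair gave 0.12.

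Fasn (ENSMUSG00000025153.9, chromosome 11, 120805846 to 120824547, minus strand), which encodes fatty acid synthase, was at 625, 238 and 410 CPM in knockout and at 697, 355 and 364 CPM in wild type. Replicate 1 was the highest library of each group, and knockout 2 the lowest of all 6. The log2 fold change was -0.15 ± 0.416 (edgeR adjusted p = 0.841), -0.15 in Y-positive libraries and -0.16 in the Xist pair. It was 0.14 without knockout 2 and 0.24 without wild type 1.

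Elovl6 (ENSMUSG00000041220.10, chromosome 3, 129532355 to 129638495, plus strand) encodes the elongase that turns palmitate into stearate. It was at 306, 71.8 and 160 CPM in knockout and at 115, 63.5 and 56.7 CPM in wild type. Knockout 1 and 3 were above every wild-type library and knockout 2 was inside the wild-type range. The log2 fold change was 1.20 ± 0.528 (edgeR adjusted p = 0.206), with 0.94 ± 0.364 (edgeR adjusted p = 0.0995) in Y-positive libraries and 1.42 in the Xist pair. The antisense gene Gm35986 overlaps the 5′ end of Elovl6 and had 27 to 297 counts, against 2653 to 17829 of Elovl6.

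Scd1 (ENSMUSG00000037071.3, chromosome 19, 44394455 to 44407879, minus strand) encodes the desaturase that makes oleate and palmitoleate, and was the most abundant member. It was at 12000, 1420 and 4210 CPM in knockout and at 7770, 7380 and 4530 CPM in wild type. Knockout 1 was the highest of the 6 libraries and knockout 2 the lowest. Scd1 took between 0.154% and 1.24% of all counts of a library. Its log2 fold change was -0.16 ± 0.704 (edgeR adjusted p = 0.901), the widest error of the 9 members, with -1.09 ± 0.56 in Y-positive libraries (edgeR adjusted p = 0.188) and 0.62 in the Xist pair. It was 0.31 without knockout 2 and 0.03 without knockout 3. Reads of Scd1 can be shared with its paralogs, of which Scd2 was at 3.52 to 11.1 CPM and Scd3 and Scd4 at no more than 0.11 CPM.

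Thrsp (ENSMUSG00000035686.8, chromosome 7, 97412938 to 97417730, minus strand) encodes a small protein induced by thyroid hormone and carbohydrate that promotes lipogenesis. It was at 85.3, 18.8 and 34.3 CPM in knockout and at 86.7, 95.1 and 77.5 CPM in wild type. Knockout 1 was within the wild-type range and the other knockout libraries were below it. The log2 fold change was -0.91 ± 0.5 (edgeR adjusted p = 0.295), and in Y-positive libraries Thrsp fell by 1.71 ± 0.295 on the log2 scale (edgeR adjusted p = 0.0107), against -0.02 in the Xist pair.

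Mlxipl (ENSMUSG00000005373.13, chromosome 5, 135089890 to 135138382, plus strand), the carbohydrate response factor, was at 272, 69.9 and 86.9 CPM in knockout and at 183, 180 and 196 CPM in wild type. As for Acacb, knockout 1 was above the wild-type range and knockout 2 and 3 were below it. The SD was 112 CPM in knockout and 8.77 CPM in wild type. Over all libraries the log2 fold change was -0.38 ± 0.495 (edgeR adjusted p = 0.654). Mlxipl fell by 1.27 ± 0.155 on the log2 scale in Y-positive libraries (edgeR adjusted p = 0.00404), and the Xist pair gave 0.58.

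Pnpla3 (ENSMUSG00000041653.5, chromosome 15, 84167837 to 84187236, plus strand) encodes a lipid droplet lipase of the patatin family that is induced with lipogenesis. It had 124, 10 and 3 counts in knockout replicates 1 to 3 and 91, 2 and 4 counts in wild type, which is 2.13, 0.18 and 0.06 CPM against 1.79, 0.04 and 0.09 CPM. The 2 libraries of the Xist pair were high, and knockout 3 and wild type 2 and 3 were near the level of 3 counts, which is 0.0515 to 0.0641 CPM. Knockout 2, at 10 counts, lay between. No fold change between the groups is given at these counts. In a fit with group and Xist state and no filter on low counts, chosen after the values were seen, Pnpla3 was 4.40 higher on the log2 scale in the Xist pair than in Y-positive libraries (edgeR adjusted p = 0.00212, where 1.1% of 23717 genes passed); with the filter, which drops Pnpla3, 0.138% of genes and 0 members passed. This contrast rests on replicate 1 of each group, so replicate number and Xist state cannot be told apart.

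Within the 4 Y-positive libraries 5 of 9 members passed the threshold, Acly higher and Acacb, Mlxipl, Thrsp and Me1 lower. In that fit 33.3% of 14546 genes passed, 17.2% higher and 16.1% lower. The same 5 members passed when knockout 1 alone was left out, with log2 fold changes of 1.42 for Acly, -1.29 for Acacb, -1.26 for Mlxipl, -1.71 for Thrsp and -0.56 for Me1, in a fit where 30.2% of genes passed. That fit holds the same 4 libraries and wild type 1, so it is not an independent check. With any other single library left out, 0 members passed, but those fits called few genes of any kind. They called 86 genes without knockout 2, 35 without knockout 3, 262 without wild type 1, 6 without wild type 2 and 20 without wild type 3. The median over the members was -0.63 in Y-positive libraries and 0.37 in the Xist pair, against 0.01 and -0.02 over all genes tested.

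The contrast between these subsets was fitted as an interaction of group and Xist state in edgeR, across all genes. The Xist state has 1 library per group, so the spread comes from the other 4 libraries and each lone library is assumed to vary like them. Knockout 1 also kept the most Stk11 of the knockout libraries, at 22.1 against 14.4 and 11.4 CPM. The log2 difference of Stk11 was -1.57 in the Xist pair and -2.38 in Y-positive libraries. An effect of the Xist state, a weaker loss of Stk11 and a single unusual mouse cannot be told apart in this fit. On that assumption 2 members passed, Acacb and Mlxipl, and 2.9% of all genes tested. The knockout-minus-wild-type difference of Acacb was 1.38 ± 0.203 higher on the log2 scale in the Xist pair than in the other libraries (adjusted p = 0.0318), and that of Mlxipl 1.84 ± 0.276 higher (adjusted p = 0.034). The interaction of Thrsp was 1.68 ± 0.499 (adjusted p = 0.155) and that of Scd1 1.71 ± 0.978 (adjusted p = 0.38), while Fasn, at -0.01 ± 0.478, and Acaca, at 0.09 ± 0.33, had values near 0. Both calls depended on which Y-positive library was left out, being lost without wild type 2 or 3 and not without knockout 2 or 3. Each such fit kept a single Y-positive library in a group, so its p-value is not given. Over these fits the interaction ran from 1.32 to 1.47 for Acacb and from 1.71 to 2.0 for Mlxipl.

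**Figure D2:**
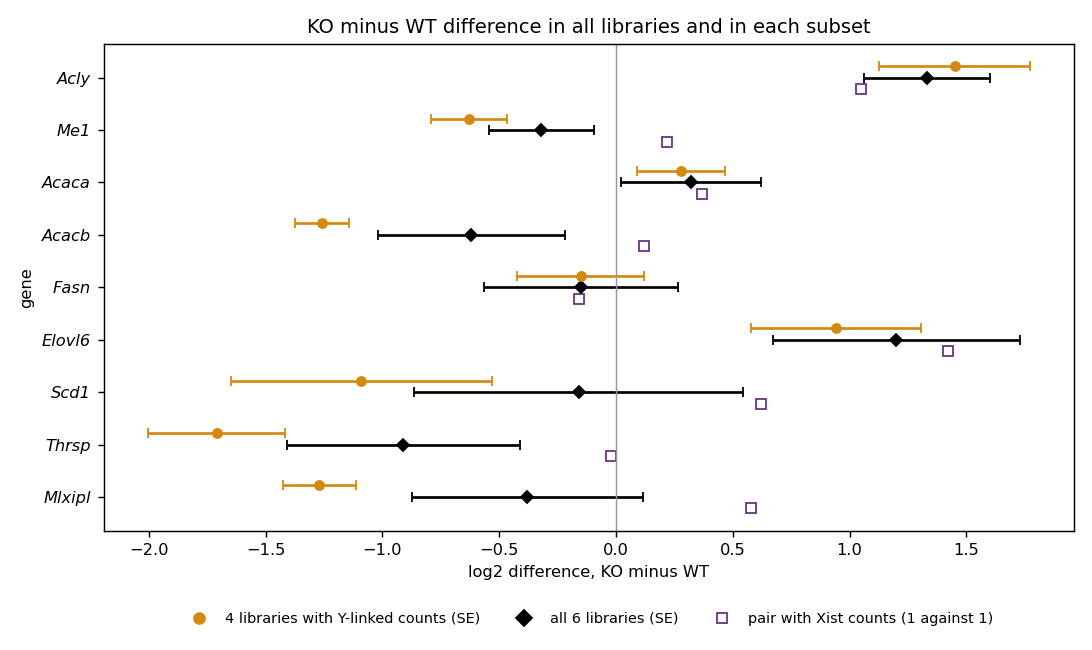
Log2 difference of knockout minus wild type for the 9 members tested. Black diamonds are all 6 libraries and orange circles the 4 libraries with Y-linked counts, with SE bars, and open squares are the ratio of the 2 libraries with Xist counts, which has no replicate. The orange circles of Acacb, Thrsp and Mlxipl lie between -1.71 and -1.26, to the left of their open squares at 0.12, -0.02 and 0.58, whereas those of Fasn and Acaca lie close to their squares.

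Among knockout libraries most members had a similar order. Knockout 1 was the highest knockout library for 9 of the 10 members, against 40.7% of all genes tested, and the exception was Acly. Knockout 2 was the lowest knockout library for 8 of 10, against 33.6% of all genes. The order was less uniform in wild type. Replicates 1, 2 and 3 were highest for 6, 3 and 1 members, against 41.1%, 29.6% and 29.3% of all genes. They were lowest for 1, 4 and 5 members, against 40.6%, 30.5% and 28.9%.

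Levels were compared between genes only per kilobase of annotated exon. In wild type Scd1 led at 1340 ± 362 CPM per kb (SD, n = 3), followed by Me1 at 73.1 ± 11 CPM per kb, with no overlap between these neighbours. Acly at 52.4 ± 5.03, Fasn at 43.1 ± 17.8, Thrsp at 39.5 ± 4.03 and Mlxipl at 33.7 ± 1.58 CPM per kb followed, and the ranges of neighbours in this order overlapped. Elovl6 at 12.2 ± 4.92 and Acacb at 9.77 ± 0.362 CPM per kb also overlapped, Acaca was below them at 6.58 ± 1.78, and Pnpla3 was last at 0.413 ± 0.646 CPM per kb. In knockout Acly was second at 131 ± 45.7 CPM per kb and Acaca, at 8.24 ± 2.83, stood above Acacb, at 6.34 ± 4.05 CPM per kb.

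Ratios of 2 members within a library do not depend on scaling, and were examined after the members' values had been seen. Of 36 ratios among the 9 tested members, 14 did not overlap between the groups, against 32.7% of the ratios of all pairs of tested genes that had counts in every library. An exact permutation test of 3 against 3 cannot give a two-sided p below 0.1, so none of these can pass a threshold of 0.05. Per kilobase, Elovl6 to Fasn gave 0.833, 0.513 and 0.665 in the knockout libraries and 0.28, 0.304 and 0.266 in wild type. The ratio of Acly to Fasn was 1.97, 4.50 and 4.90 in knockout and 0.852, 1.73 and 1.41 in wild type. The ratio of Acaca to Acacb, the synthetic to the mitochondrial-surface carboxylase, was 1.02, 1.48 and 1.87 in knockout and 0.855, 0.601 and 0.556 in wild type. The 14 of 36 are a share close to that over all gene pairs, and nothing is read from them about the members as a set.

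Genes around the members were taken from 7 lists by role, with 90 genes, of which 84 were tested. Of the 84, 2 passed the threshold over the 6 libraries, Gpat4 higher and Xbp1 lower, against 3.37% of all genes tested. A log2 fold change above 0 was found for 42 and below 0 for 42. The median over the 84 was -0.04, against 0.01 over all genes. An unadjusted edgeR p-value under 0.05 was found for 34, against 26.3% of all genes, 9 of them regulators and 6 of triglyceride assembly. The groups did not overlap for 34, against 32.4% of all genes. These were 9 regulators, 7 supply genes, 1 of elongation and desaturation, 6 of triglyceride assembly, 6 of carbohydrate response, 5 of malonyl-CoA use and enzyme maturation and 0 patatin-like lipases and cofactors. With DESeq2, 24 of the 84 passed, against 15.8% of all genes. These were 6 regulators, 4 supply genes, 2 of elongation and desaturation, 5 of triglyceride assembly, 5 of carbohydrate response and 2 of malonyl-CoA use and enzyme maturation. Of patatin-like lipases and cofactors 0 passed. With limma voom 2 passed, 1 regulator and 1 gene of triglyceride assembly, against 2.97% of all genes. In Y-positive libraries 39 passed, 17 higher and 22 lower, against 33.3% of all genes, 17.2% higher and 16.1% lower. The lists were written with earlier results of these data known, so these counts are a description only. Values of the genes named from these lists are over all 6 libraries unless a subset is given.

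Among regulators, 1 of 17 genes passed, Xbp1, a transcription factor of the secretory pathway that also acts on hepatic lipogenesis. It was at 75, 92.6 and 82.9 CPM in knockout and at 190, 151 and 188 CPM in wild type, with no overlap. Xbp1 fell by 1.08 ± 0.159 on the log2 scale (edgeR adjusted p = 0.0261), with -0.96 in Y-positive libraries and -1.34 in the Xist pair. The call was lost without knockout 2 (edgeR adjusted p = 0.0564), knockout 3 (0.136), wild type 1 (0.0587), wild type 2 (0.112) and wild type 3 (0.143). Those fits called between 6 and 262 genes in all. With any single library left out the log2 difference of Xbp1 ran from -1.18 to -1.02. Srebf1, the insulin-driven activator of the pathway, was at 187, 86.6 and 169 CPM in knockout and at 232, 132 and 140 CPM in wild type. Its order of libraries was that of Fasn, and its log2 fold change was -0.19 ± 0.344 (edgeR adjusted p = 0.758). Nr1h3, a liver X receptor gene, differed by 0.07 ± 0.151 (edgeR adjusted p = 0.808). Mid1ip1, which encodes a protein that helps acetyl-CoA carboxylase polymerise and is a paralog of Thrsp, had lower values in each knockout mouse, at 24.1 to 30.4 against 38.1 to 54.3 CPM (edgeR adjusted p = 0.0605).

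Of the 12 tested genes that supply citrate, acetyl-CoA and NADPH, 0 passed in edgeR over the 6 libraries. An unadjusted p-value under 0.05 was found for 5, against 26.3% of all genes, and the groups of 7 did not overlap, against 32.4%. Mdh1, the cytosolic malate dehydrogenase, was at 864, 1530 and 1720 CPM in knockout and at 508, 593 and 548 CPM in wild type. Every knockout library was above every wild-type one, and the log2 fold change of 1.32 ± 0.285 was like that of Acly (edgeR adjusted p = 0.0566), with an edgeR adjusted p-value of 0.00441 in Y-positive libraries and a log2 difference of 0.77 in the Xist pair. Acss2, which makes acetyl-CoA from acetate, had a log2 fold change of -1.17 ± 0.334 (edgeR adjusted p = 0.0922), opposite in sign to Acly, with -1.71 in Y-positive libraries (edgeR adjusted p = 0.00391) and -0.35 in the Xist pair.

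Among 12 tested genes of elongation and desaturation 0 passed in edgeR. An unadjusted p-value under 0.05 was found for 2, Elovl1 and Elovl3, against 26.3% of all genes. Elovl1, an elongase of very long chains, was at 22.3 to 30.2 CPM in knockout and 33.8 to 42.9 CPM in wild type (log2 fold change -0.53 ± 0.156, edgeR adjusted p = 0.0977). Elovl3 had 713 and 814 CPM in wild type 2 and 3 and no more than 2.74 CPM in the other 4 libraries, and its log2 fold change was -8.70 ± 2.14 (edgeR adjusted p = 0.071).

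Of 14 tested genes of triglyceride assembly 1 passed, Gpat4, a glycerol-3-phosphate acyltransferase of the endoplasmic reticulum. It was at 368, 425 and 591 CPM in knockout and at 117, 170 and 159 CPM in wild type, with no overlap. Gpat4 rose by 1.63 ± 0.246 on the log2 scale (edgeR adjusted p = 0.0277), with 1.62 in Y-positive libraries and 1.65 in the Xist pair. The call was lost without knockout 2 (edgeR adjusted p = 0.0643), knockout 3 (0.102), wild type 1 (0.0628), wild type 2 (0.142) and wild type 3 (0.141). Those fits called between 6 and 262 genes in all. With any single library left out the log2 difference of Gpat4 ran from 1.42 to 1.76. Dgat1, which adds the last acyl chain, was at 19.6 to 40.7 CPM in knockout and 13.7 to 16 CPM in wild type (log2 fold change 1.07 ± 0.258, edgeR adjusted p = 0.0696).

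Of 12 carbohydrate-response genes 0 passed in edgeR, and 6 had an unadjusted p-value under 0.05, against 26.3% of all genes. The list's median log2 fold change was 0.39, which became -0.09 without knockout 1. Its members differed in sign. Pklr, the liver pyruvate kinase and a classic target of the Mlxipl product, was at 216, 55 and 68.1 CPM in knockout and at 190, 148 and 120 CPM in wild type. As for Mlxipl, knockout 1 was above every wild-type library and knockout 2 and 3 were below, and in Y-positive libraries Pklr fell by 1.13 on the log2 scale (edgeR adjusted p = 0.0072), against 0.18 in the Xist pair. The glucose transporter Slc2a2 was lower in every knockout library, at 110 to 203 against 278 to 374 CPM (log2 fold change -1.10 ± 0.257, edgeR adjusted p = 0.064).

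In the list of malonyl-CoA use and enzyme maturation 0 of 11 genes passed in edgeR. An unadjusted p-value under 0.05 was found for 4, against 26.3% of all genes. Ndufab1, the mitochondrial acyl carrier protein, had a log2 fold change of 0.71 ± 0.168 (edgeR adjusted p = 0.0654). Hlcs, the ligase that attaches biotin to the carboxylases, was at 11.8, 6.25 and 9.13 CPM in knockout and at 15.9, 15.5 and 15.2 CPM in wild type (log2 fold change -0.78 ± 0.228, edgeR adjusted p = 0.0967). Of 6 tested patatin-like lipases and cofactors 0 passed in edgeR, and 2 had an unadjusted p-value under 0.05, against 26.3% of all genes. These were Pnpla2, the adipose triglyceride lipase, at 0.83 ± 0.337 on the log2 scale (edgeR adjusted p = 0.176), and its inhibitor G0s2, at 0.63 ± 0.258 (edgeR adjusted p = 0.182).

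**Figure D3:**
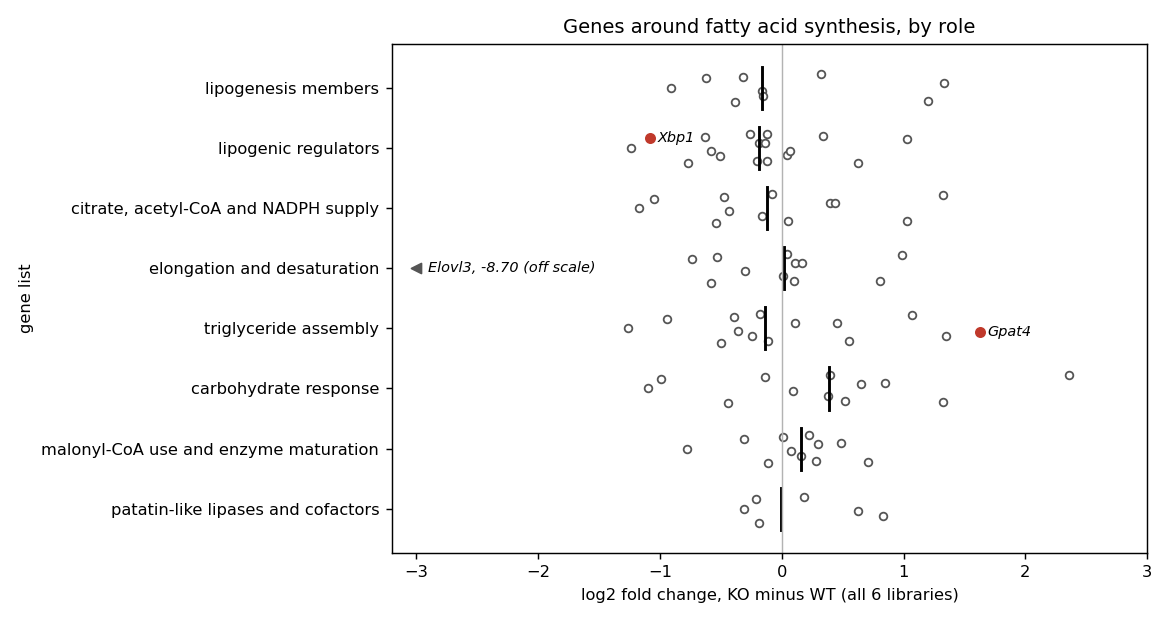
Log2 fold change of each tested gene in the lipogenesis set and in 7 lists of related roles, over all 6 libraries. Filled red points passed an adjusted p-value of 0.05 in edgeR, open points did not, and black bars are list medians, which run from -0.19 to 0.39. The 2 filled points are Xbp1 and Gpat4, and Elovl3 lies off the scale at -8.70.

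The genes outside the lists whose pattern over the 6 libraries was most like the mean standardised profile of the 10 members were Ikbkb, Tlcd1, Fam20a, Pde4c and Mcu, with Pearson coefficients of 0.988, 0.983, 0.983, 0.983 and 0.981 among 7398 genes with a mean of at least 10 CPM. Nolc1, Gtpbp4 and Rnf115 were most opposite, at -0.997, -0.994 and -0.992. Nolc1, a nucleolar protein gene, was at 11.1, 41 and 26.1 CPM in knockout replicates 1 to 3 and at 14.9, 20.6 and 24.8 CPM in wild type, so that the library with the highest members had the lowest Nolc1. With 6 libraries and this many candidates such coefficients are a description only.

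**Figure D4:**
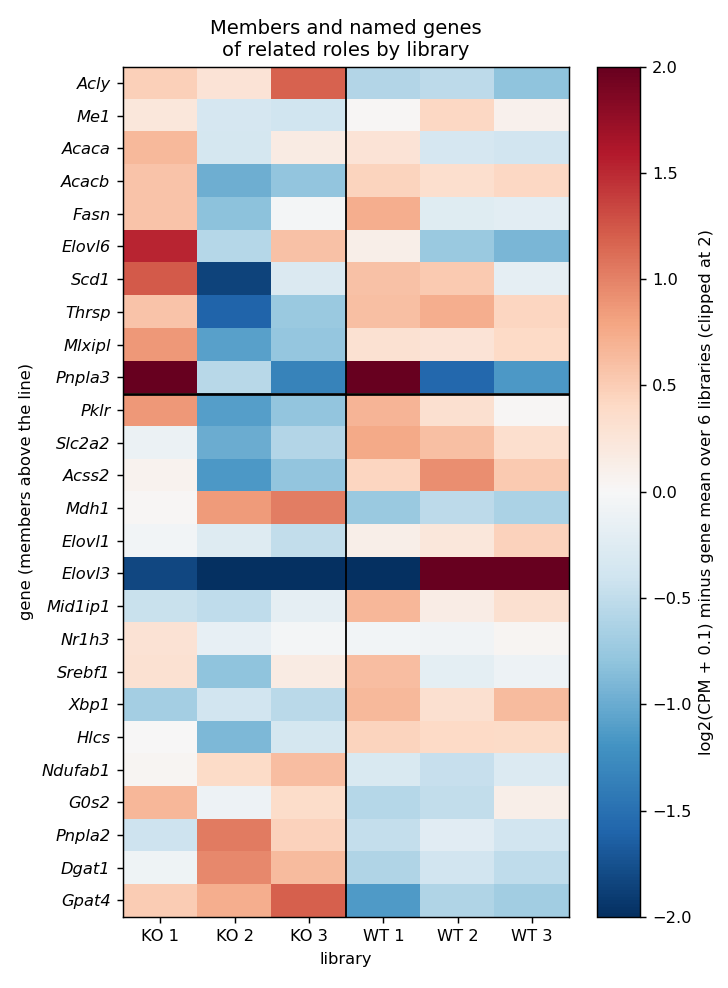
Log2 (CPM + 0.1) of each gene minus its mean over the 6 libraries, for the 10 members above the line and 16 named genes of related roles below it, with knockout libraries left and wild-type libraries right. Red is above and blue below the gene's mean, with colours limited at 2. Acly, Mdh1, Ndufab1, Dgat1 and Gpat4 have higher values in all 3 knockout columns than in the wild-type columns, and Acacb, Thrsp, Mlxipl and Pklr have their lowest values in knockout 2 and 3.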

How the data were processed

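The deposited values are expected counts, estimated by RSEM for each gene of 6 liver libraries by the authors. Per the submitters' processing notes, bcl2fastq 2.17, cutadapt 1.18, STAR 2.7.0f and RSEM 1.3.1 were used, with the build mm9; all 55450 deposited gene identifiers are those of GENCODE M21 on GRCm38, so positions and exon lengths were taken from that annotation. The use of strand is not given in the sources used here. RNA with an integrity number above 8 entered the library preparation at 200 ng, and reads were 76 nt, paired, per the labels' protocols.

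Expected counts were rounded, filtered with filterByExpr of edgeR 4.0.16, scaled by TMM and tested with glmQLFTest in R 4.3.3, with the group as the only term and Benjamini-Hochberg adjustment over all genes tested, after a check on simulated counts. In that check, at the dispersion of these data, edgeR called 10 of 97 genes changed 2-fold and 83 of 96 changed 4-fold, with 2 false calls. DESeq2 called 39 and 90 of them, with 40 false calls among 169, and limma voom 9 and 80, with 1 false call. The SE is the log2 fold change divided by the root of the F statistic. Ratios for the Xist pair use an offset of 0.1 CPM, and log2 CPM for profiles a prior count of 2. Libraries held 47659122 to 56147667 counts, and the tested member with the fewest, Thrsp, had at least 1044. Alternatives were DESeq2 1.42.0, limma voom (3.58.1), other scalings and filters, unrounded counts, a replicate block, the Xist state as a covariate, and leaving out libraries.

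The members and lists were chosen with earlier results of these data known. Genes named are the 10 members, Stk11, list genes past the threshold, the 2 smallest p-values of each list, Srebf1, Nr1h3, Mid1ip1, Pklr and Elovl3, and the genes most like or unlike the members. A further 2 genes that this rule takes are not reported here by name. Gm11437, Gm35986 and the Scd1 paralogs are named for overlap of gene ranges or possible shared reads, chosen after their values were seen. Of 7 hepatocyte marker symbols, 6 were in the table. No p-value was adjusted over the members alone, and no set test was run.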

Additional observations from a re-analysis of the deposited data

Results flagged for a closer look

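Acacb, Mlxipl and Elovl3 passed the interaction of group and Xist state in edgeR, which sets the knockout-minus-wild-type change in the Xist pair against that in Y-positive libraries. The pair has 1 library per group, so the p-values take their spread from the other 4 libraries and assume that the lone libraries vary like them. The change was 1.38 higher in the pair for Acacb, 1.84 higher for Mlxipl and 11.14 higher for Elovl3 (log2 units), and the adjusted p-values were 0.0318, 0.034 and 0.00119. Elovl3 was at 2.74 and 2.03 CPM in the pair, knockout first. For Acacb the values were 106 CPM in knockout 1 against 97.2 CPM in wild type 1, and 36.3 and 41 CPM in knockout 2 and 3 against 90.3 and 94.6 CPM in wild type 2 and 3. The pair consists of replicate 1 of each group, and knockout 1 kept the most Stk11 of the knockout libraries. For Acacb and Mlxipl the Xist state, the replicate number, the remaining Stk11 and the individual mice therefore cannot be told apart. For Elovl3 the contrast lay between wild type 1 and wild type 2 and 3. There the Xist state, the replicate number and the individual mice cannot be told apart.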

How the results depend on the processing

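Of the 10 members, 0 passed in the reported fit, and Acly alone, 1 member, passed with DESeq2, limma voom, scaling by library size only, no filter on low counts, or the Xist state as a covariate. The count was 5 in Y-positive libraries and 0 to 5 when a replicate was left out. The members' median log2 fold change ran from -0.56 to 0.23 when a replicate was left out. Genes past the threshold numbered 490 (3.37%) as reported, 2290 (15.8%) with DESeq2, 771 (3.25%) with no filter and 1504 (10.3%) with the Xist state as a covariate. They numbered 4847 (33.3%) in Y-positive libraries, and 6 to 4473 with a replicate left out. For the 84 genes of the related lists the count of 2 became 24, 7, 12 and 39 in those settings and 0 to 34 with a replicate left out. Members past the interaction test numbered 2, where 2.9% of all genes tested passed. That count changed with each Y-positive library left out, in fits where a group kept a single such library. No member passed the coefficient of the Xist state, a test added after seeing the data, in edgeR with the filter, where 0.138% of genes passed. With no filter 1 member passed, against 1.1% of genes. The count with the filter changed without wild type 1, in a fit that kept a single library with Xist counts. With a replicate left out the direction also changed for Fasn (-0.55 to 0.24), Scd1 (-1.23 to 0.31), Srebf1 (-0.40 to 0.11) and Nr1h3 (-0.08 to 0.17, and -0.09 in Y-positive libraries), and for the interactions of Fasn (-0.33 to 0.43, with 0.01 under no filter, 0.06 at a mean CPM of at least 1 and 0.03 by limma voom), Acaca (-0.12 to 0.36) and Acly (-0.76 to 0.12). The causes were not tested. With the replicate block 105 genes, 0 members and 0 list genes passed; same-numbered libraries correlated at 0.178, 0.0443 and 0.0679 in their deviations, so the numbers were not treated as pairs, and only knockout 1 correlated best with its own number. Depth limits Pnpla3 alone among the members, at 2 to 10 counts in 4 libraries.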
